A study of Mus musculus with 11 samples.

Results

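The transcripts described here are those of the imprinted Dlk1-Dio3 domain of mouse chromosome 12, in the cerebral cortex of 5XFAD mice with and without Abi3. The 7 members were Meg3, Rian, Mirg, Gm37899, Dlk1, Rtl1 and Dio3, matched by symbol among the 53700 gene identifiers of the count tables. They were chosen by measured values of the same comparison, because Meg3, Rian and Gm37899 had been seen to be lower in Abi3-/- cortex, together with the named genes of the domain. Their differences between genotypes are therefore given as a description, with no test.

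Cortical RNA of 11 female mice aged 8 months, 6 Abi3+/+ and 5 Abi3-/-, was profiled with QuantSeq. With this method cDNA synthesis is primed at the poly(A) tail, and reads fall near the 3′ end of a transcript. All 11 carried the 5XFAD transgenes, driven by the neuronal Thy1 promoter on a B6SJL background, which cause amyloid deposition. The Abi3-/- animals had the Velocigene definitive null allele from C57BL/6N-Abi3tm1.1(KOMP)Vlcg mice, Abi3 is deleted in every cell type, and the labels give the strain as C57BL/6. The study's methods state that all the animals were heterozygous for the Trem2 S148E variant of the SJL background, so that the controls had it too. The labels name no batch.

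The domain is a textbook imprinted cluster. On the chromosome inherited from the father the protein-coding genes Dlk1, Rtl1 and Dio3 are active, and on the chromosome inherited from the mother a series of non-coding RNAs is transcribed in one direction, from Meg3 through Rian to Mirg. Meg3 is a nuclear long non-coding RNA that is abundant in neurons, Rian is the host of a cluster of C/D box small nucleolar RNAs, and Mirg is the host of a large microRNA cluster. The count tables do not separate the parental alleles.

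On GRCm39 the members ran over 0.829 Mb, from the start of Dlk1 to the end of Dio3. Dlk1 lies at chr12:109418749-109429262 on the plus strand, and Meg3 at chr12:109506877-109538165 on the plus strand, so that Dlk1 starts at -88.1 kb relative to the Meg3 start. Rian (chr12:109570242-109628150, plus strand) starts 63.4 kb after the Meg3 start. Rtl1 (chr12:109555627-109582007, minus strand) shares 11766 bases of its span with Rian on the opposite strand, and 0 of these are exonic in both genes. Gm37899 (chr12:109635303-109644019, plus strand), which the annotation classes as TEC, a provisional transcript still awaiting experimental support, starts 128.4 kb after Meg3. Mirg (chr12:109696198-109715898, plus strand) starts 189.3 kb and Dio3 (chr12:110245502-110247531, plus strand) 738.6 kb after it. One annotated long non-coding RNA that is no member, B830012L14Rik (chr12:109642711-109680989, plus strand), lies between Gm37899 and Mirg. In the annotation used here it shares 815 exonic bases with Gm37899 on the same strand, where reads may have been left uncounted as ambiguous or given to either gene.

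The microRNAs of the domain are what these host transcripts are best known for. The position of each hairpin shows which annotated gene, if any, spans it. RefSeq hairpins were placed on GRCm39 by exact match, which gave 58 hairpins, 54 of them on the plus strand like the non-coding RNAs. Their 108 mature microRNAs had 99 distinct seeds (bases 2 to 8), and 9 seeds occurred in 2 mature microRNAs each. Mirg spans 14 of the hairpins, B830012L14Rik 9, Rian 3 and Meg3 1, each on the same strand. Of the rest, 22 lie within no counted long non-coding, TEC or protein-coding gene on either strand, and 6 lie only opposite Rtl1. Both arms of the hairpin within Meg3 (Mir770, chr12:109530126-109530219) and of the one within Rian clear of Rtl1 (Mir370, chr12:109584692-109584770) are shown first, with the seed in capitals.
miR-770-5p: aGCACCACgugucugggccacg
miR-770-3p: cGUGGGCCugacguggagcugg
miR-370-5p: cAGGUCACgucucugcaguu
miR-370-3p: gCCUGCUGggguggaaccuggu

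The next sequences come from hairpins within B830012L14Rik (Mir379 and Mir411), within Mirg (Mir134 and Mir410) and, for miR-1193, between both genes. They are shown because the 3p arms of miR-379 and miR-411 have the same seed, as do the 5p arms of miR-379 and miR-1193. Seeds are in capitals.
miR-379-3p: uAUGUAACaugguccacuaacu
miR-411-3p: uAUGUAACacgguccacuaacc
miR-379-5p: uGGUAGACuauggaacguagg
miR-1193-5p: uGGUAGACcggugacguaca
miR-134-5p: uGUGACUGguugaccagagggg
miR-410-3p: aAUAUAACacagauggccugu

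None of these mature forms was measured, since poly(A)-primed libraries read the host transcripts. Of 67 microRNA genes annotated in the domain 61 were in the count tables, and 7 of them had any count, 55 counts in all. Of 23 annotated small nucleolar RNA genes 18 were in the tables, and 5 had any count, 144 in all, of which 136 came from Gm25224.

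RefSeq promoter windows (250 bases before to 50 after a start, taken from GRCm38.p6 and placed on GRCm39 by exact match) were found for 5 of the 7 members, Dlk1, Meg3, Rian, Mirg and Dio3. The Meg3 window at chr12:109506629-109506928 on the plus strand is 1 of 2 RefSeq windows of this gene. It is printed because it overlaps the annotated Meg3 start. It was also picked because the 3 called members, Meg3, Rian and Gm37899, lie at or downstream of it on its strand. B830012L14Rik, Mirg and Dio3, which were not called, lie downstream on that strand too, and Dlk1 lies upstream. The capitals mark TGACGTCA, the palindromic cAMP response element.
Meg3 promoter: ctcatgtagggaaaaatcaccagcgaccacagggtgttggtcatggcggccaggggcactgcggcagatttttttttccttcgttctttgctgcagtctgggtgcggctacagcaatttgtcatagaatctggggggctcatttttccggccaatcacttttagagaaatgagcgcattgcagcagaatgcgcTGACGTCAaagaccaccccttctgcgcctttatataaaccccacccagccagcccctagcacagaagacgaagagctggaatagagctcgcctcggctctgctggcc

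Searched on both strands, TGACGTCA was in 588 of 32851 RefSeq promoter windows of this length (1.79%), and among the members' windows it was in this one alone. The printed window held 13 CpG, the window of Rian 0, and the median over all windows was 7. The other Meg3 window, at chr12:109511031-109511330 within the gene, held 1 CpG and no TGACGTCA. A match of letters is a description of the sequence and was not measured as binding.

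Abi3, the targeted gene, which encodes a member of the Abelson interactor family enriched in microglia, had 10 to 38 counts in the 6 Abi3+/+ animals. It had 0 counts in 4 Abi3-/- animals and 2 counts in Abi3-/- replicate 2. Reads in genes ranged from 3202310 to 5501958 per animal, so that 3 counts, taken as the smallest amount told from none, were 0.545 to 0.937 CPM, the count as a share of all reads in genes (counting error only). DESeq2 tested 17626 genes, and 60 were higher and 35 lower in Abi3-/- cortex at an adjusted p at or below 0.05 (Benjamini-Hochberg). None of the 10 neuronal, 6 astrocyte, 6 oligodendrocyte, 8 microglial, 5 endothelial or 5 choroid plexus markers passed the DESeq2, edgeR or limma threshold, and 3, 0, 1, 1, 0 and 0 of them, all higher in Abi3-/-, had an unadjusted DESeq2 p under 0.05. No marker was at 0 in all animals. Choroid plexus markers summed to 871 to 5233 normalized counts in Abi3+/+ and 990 to 4050 in Abi3-/- animals, the widest range of the 6 marker lists.

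Meg3 was the most abundant transcript of the domain and the gene with the ninth highest mean normalized count of the 17626 tested. Normalized counts (counts divided by the DESeq2 size factor of the library) in Abi3+/+ animals were 25186 at the lowest, 30862 at the median and 33070.1 at the highest. In Abi3-/- replicates 1 to 5 they were 22684, 18972, 24975, 27281 and 20148. Replicate 4 was the highest of the Abi3-/- animals and lay above 2 of the Abi3+/+ animals, replicates 2 and 3, so the groups overlapped, while the other 4 Abi3-/- animals were below every Abi3+/+ animal. The means were 29792 ± 2996 (SD, n = 6) and 22812 ± 3410 (SD, n = 5), a log2 fold change of -0.39 ± 0.086 (SE), or 0.766-fold.

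As a share of all reads in genes, Meg3 gave 0.676% to 0.914% in Abi3+/+ and 0.478% to 0.722% in Abi3-/- animals. The lowest library, Abi3-/- replicate 2, had 0.478% (95% exact binomial interval 0.471% to 0.484%), and the highest, Abi3+/+ replicate 6, had 0.914% (0.904% to 0.924%). The counting intervals were thus far narrower than the spread between animals. Fewer cells that make a transcript and less RNA per cell cannot be told apart in tissue RNA. The summed neuronal markers were 20940 to 23403 normalized counts in Abi3+/+ and 22746 to 24905 in Abi3-/- animals, and 7 of the 10 had a fold change above 0. Their part in the Meg3 difference was not tested.

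Rian showed a smaller difference. Its normalized counts were 1119 at the lowest, 1201 at the median and 1333 at the highest in Abi3+/+ animals. In Abi3-/- replicates 1 to 5 they were 925, 908, 1086, 1203 and 839.8. Replicate 4 was again the highest Abi3-/- animal and lay among the Abi3+/+ animals, and the other 4 were below all of them. The log2 fold change was -0.30 ± 0.088 (SE), from means of 1219.5 ± 80.7 (SD, n = 6) and 992 ± 148 (SD, n = 5).

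Gm37899, the provisional transcript downstream of Rian, separated the genotypes. Its normalized counts were 355 at the lowest, 389 at the median and 417.5 at the highest in Abi3+/+ animals. In Abi3-/- replicates 1 to 5 they were 260.1, 264, 266, 331 and 278, and all 5 lay below the lowest Abi3+/+ animal. Replicate 4 was once more the closest to the Abi3+/+ range. The log2 fold change was -0.47 ± 0.097 (SE), or 0.720-fold, and the transcript varied little among animals of a genotype, with a coefficient of variation of 5.78% in Abi3+/+ and 10.5% in Abi3-/-.

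Mirg, the microRNA host at the far end of the series, had far fewer reads than Rian, 73 to 173 counts per animal. Normalized counts were 100.4 at the lowest, 118 at the median and 147 at the highest in Abi3+/+ animals. In Abi3-/- replicates 1 to 5 they were 111, 73.7, 113, 97.1 and 83.1. Replicates 1 and 3 lay within the Abi3+/+ range and the other 3 were below it. The log2 fold change was -0.36 ± 0.17 (SE), about the size of that of Meg3 with an error about double.

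The genes active on the paternal chromosome were low or variable. Dlk1, a transmembrane protein of the Notch ligand family, had 33.2 at the lowest, 127.5 at the median and 233 at the highest in Abi3+/+ animals, a 7.02-fold range within the genotype. In Abi3-/- replicates 1 to 5 its normalized counts were 50.3, 45.5, 143, 65.5 and 48.9, so that the groups overlapped over most of their range. The log2 fold change of -0.92 had an SE of 0.50 and a 95% interval from -1.90 to 0.06. Rtl1, a retrotransposon-derived gene on the opposite strand, had 13 counts in all 11 animals together, 6 in Abi3+/+ and 7 in Abi3-/-, all 7 of the latter in replicate 2. Its mean was below the 1.5 normalized counts needed for the results. Dio3, the deiodinase that inactivates thyroid hormone, had 0 to 15 counts per animal and a log2 fold change of -0.19 with an SE of 1.06, so no difference was detectable at this depth.

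**Figure D1:**
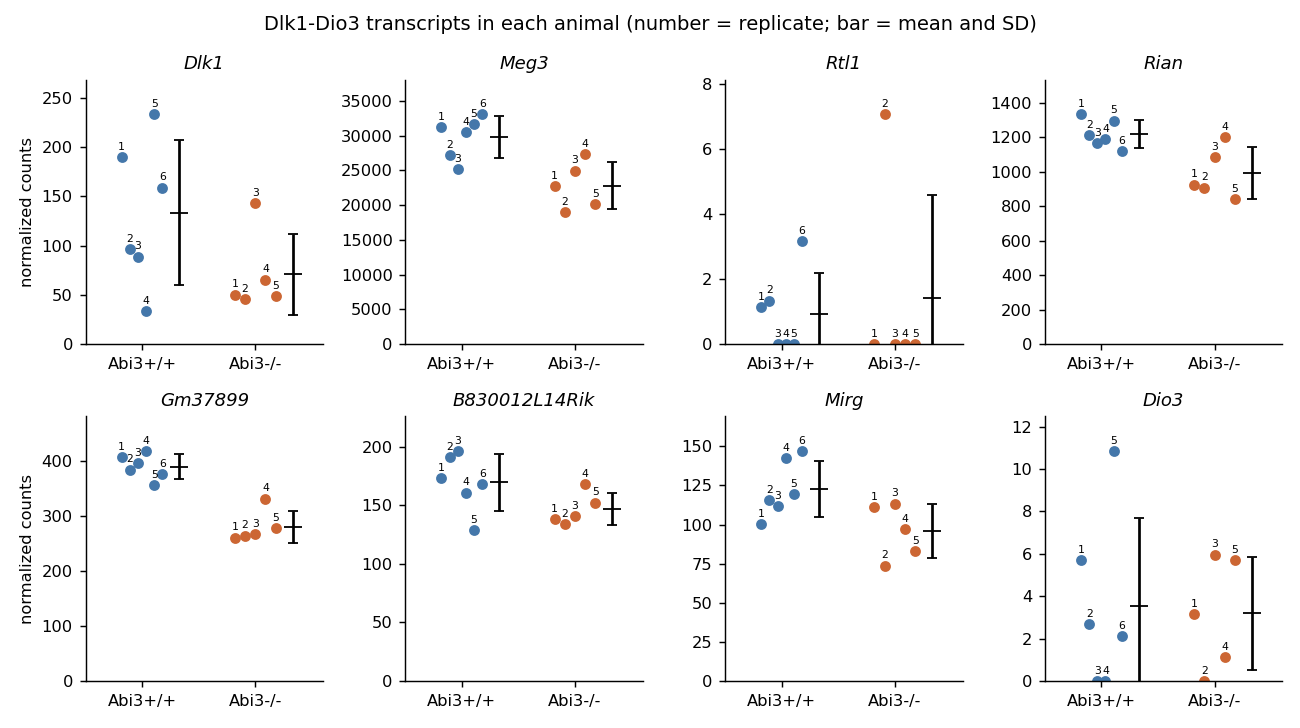
Normalized counts (vertical axes, from 0, one scale per gene) of the 7 members and B830012L14Rik in 6 Abi3+/+ and 5 Abi3-/- animals, each point 1 animal with its replicate number, and bars the mean and SD of a group (SD ends below 0 are not drawn). Gm37899 is the one panel in which the highest Abi3-/- animal (331) lies below the lowest Abi3+/+ animal (355).

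Of the 7 members 6 were in the results, and all 6 had a fold change below 0. At the adjusted threshold 3 of the 6 were called, Meg3, Rian and Gm37899, all lower. Of all genes tested, 0.539% were called in either direction and 0.199% were called lower. Only 6487 of the 17626 genes tested, and 5 of the 6 members, had an adjusted p and could be called. Rian did not pass in edgeR or limma. An unadjusted p under 0.05 with a lower level was reached by 4 of the 6, against 4.44% of all genes. Lower values without overlap between the groups were seen for 1 of the 6, Gm37899, against 0.499% of all genes. Since these values chose the members, nothing is read from the counts. The median log2 fold change of the 6 was -0.37, beside -0.003 over all genes tested.

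Levels of different transcripts were compared per length, as CPM per kilobase of annotated exon. Reads of this method gather at the 3′ end, so a length scale can undervalue long transcripts. It puts Gm37899 above Rian, although Rian had the higher mean normalized count in Abi3+/+ animals (1219.5 against 388.8). In Abi3+/+ animals Meg3 had 417 ± 43.9 (SD, n = 6), followed by Gm37899 with 12.1 ± 0.819 and Rian with 10.3 ± 0.518. Dlk1 came next with 5.93 ± 3.2, and its spread took in B830012L14Rik with 3.93 ± 0.58 and Mirg with 3.44 ± 0.573. Dio3 (0.467 ± 0.537) and Rtl1 (0.0378 ± 0.0507) were the lowest, each with a spread larger than its mean. In Abi3-/- animals Gm37899 with 8.46 ± 0.985 (SD, n = 5) and Rian with 8.17 ± 1.2 did not differ beyond their spread, and Meg3 had 311 ± 48.

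Relative to Meg3 the other transcripts of the series held nearly the same proportion in both genotypes. Per 1000 Meg3 reads there were 41.3 ± 4.46 Rian reads in Abi3+/+ (SD, n = 6) and 43.6 ± 2.74 in Abi3-/- animals (SD, n = 5). Gm37899 gave 13.2 ± 1.71 and 12.4 ± 1.42 reads, and Mirg gave 4.14 ± 0.54 and 4.2 ± 0.529. B830012L14Rik gave 5.81 ± 1.37 and 6.51 ± 0.788. Each of these 4 differences was smaller than the SD within a genotype, and the ranges overlapped.

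B830012L14Rik was not a member and its own difference could be tested. Its normalized counts were 129 at the lowest, 171 at the median and 197 at the highest in Abi3+/+ animals. In Abi3-/- replicates 1 to 5 they were 138, 134, 141, 168 and 152.5, all within the Abi3+/+ range. The log2 fold change was -0.21 ± 0.14 (SE; DESeq2 adjusted p = 0.573), with a 95% interval from -0.48 to 0.07 that takes in the values of Meg3 and Rian. The small nucleolar RNA gene Gm25224 within the same stretch had a mean of 11.8 normalized counts and a log2 fold change near 0 with an SE of 0.505.

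The genes on either side of the domain gave the chromosomal context. From 1 Mb before Dlk1 to 1 Mb after Dio3, 31 genes that were no members were tested, and 21 of these had a mean of at least 10 normalized counts. In the domain these were B830012L14Rik and Gm25224, before it Eml1, Evl, Gm34220, Yy1, Slc25a29, Wars1 and Begain, and after it Ppp2r5c, Dync1h1, Hsp90aa1, Wdr20, Mok, Zfp839, Cinp, Tecpr2, Ankrd9, Rcor1, Traf3 and Amn. Of the 19 outside the domain 13 had a fold change above 0 and 6 below, with a median of 0.05 and a range from -0.20 to 0.49. Begain, the last of these genes before Dlk1, had a log2 fold change of -0.08 ± 0.24 (SE). Ppp2r5c, a regulatory subunit of protein phosphatase 2A and the first after Dio3, had -0.04 ± 0.081.

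Of the 31, Hsp90aa1, a stress-inducible cytosolic chaperone, passed the threshold. It was higher in Abi3-/- cortex by 0.23 ± 0.069 on the log2 scale (SE; DESeq2 adjusted p = 0.0489), with means of 2256 ± 155 (SD, n = 5) against 1917 ± 160.5 (SD, n = 6) and no overlap. It did not pass under any of the 8 other fits of all animals, where its adjusted p ranged from 0.0526 to 1. Of the 31 genes, only 9 had an adjusted p and could be called, 8 of these outside the domain. No gene outside the domain and within 1 Mb of it was called lower.

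**Figure D2:**
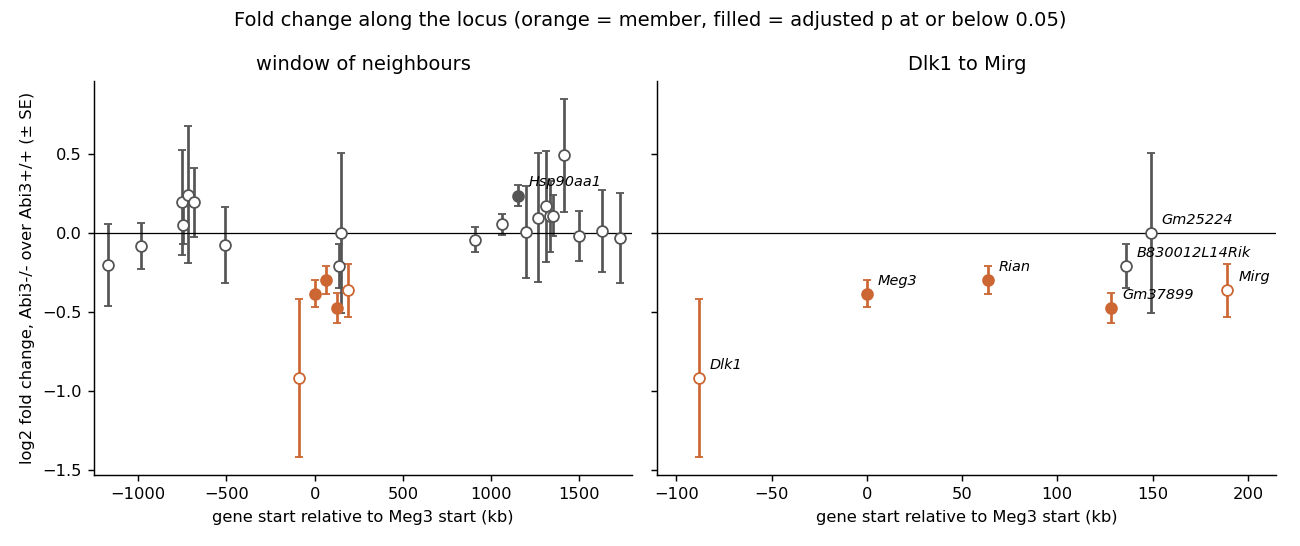
Log2 fold change of Abi3-/- over Abi3+/+ with its SE (vertical axis) against the distance of each gene's start from the Meg3 start in kb (horizontal axis), for genes with a mean of at least 10 normalized counts, over the whole window on the left and from Dlk1 to Mirg on the right. Members are orange, other genes grey, and filled points are those past the threshold, Meg3, Rian, Gm37899 and, on the other side of 0, Hsp90aa1.

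A property of the libraries moved with the genotype and with these transcripts. The tables tally uniquely aligned reads that fell outside every annotated exon on the strand counted, such as intronic or intergenic reads. There were 65.9 ± 3.67 such reads per 100 reads in genes in Abi3+/+ (SD, n = 6; range 59.3 to 68.8) and 54.0 ± 4.99 in Abi3-/- animals (SD, n = 5; range 49.8 to 62.5). The difference of -11.9 had p = 0.00866 in a two-sided exact permutation test, the smallest possible p being 0.00216. Abi3-/- replicate 4, the highest Abi3-/- animal for Meg3, Rian and Gm37899, was also the highest of its genotype in this measure. Abi3+/+ replicate 3, the lowest Abi3+/+ animal for Meg3, was the lowest of its genotype.

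Within genotypes Meg3 followed this measure closely. After subtraction of the group means, log2(normalized count + 1) of Meg3 had Pearson's r = 0.86 and Spearman's rho = 0.84 with it over the 11 animals, and r = 0.76 without the 2 animals farthest from the median. The r was 0.82 over the 6 Abi3+/+ and 0.88 over the 5 Abi3-/- animals taken alone, and Meg3 stood 9 in order of r among 7780 genes with a mean of at least 50, whose median r was -0.05. For Rian r was 0.64 and for Gm37899 0.65, but both fell without the 2 farthest animals, to 0.27 and 0.04. Mirg had r = 0.39 and Dlk1 0.10. These are descriptions of values from the same libraries and their scaling, with no test.

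When the measure was added to the DESeq2 fit as a covariate, the log2 fold change of Meg3 was 0.04 ± 0.105 (SE) in place of -0.39, and that of Rian was -0.03 ± 0.142. Gm37899 had -0.28 ± 0.174 in place of -0.47, and Mirg -0.10 ± 0.31 in place of -0.36. Of the 6 members in that fit 0 passed the threshold and 0 had an unadjusted p under 0.05, where 0.017% of all genes passed. Without the covariate, 2 members (Meg3 and Gm37899) passed in edgeR and in limma, where 37 and 21 of the 17626 genes passed. Because the measure differs between the genotypes, its part and that of the genotype cannot be told apart by this fit.

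**Figure D3:**
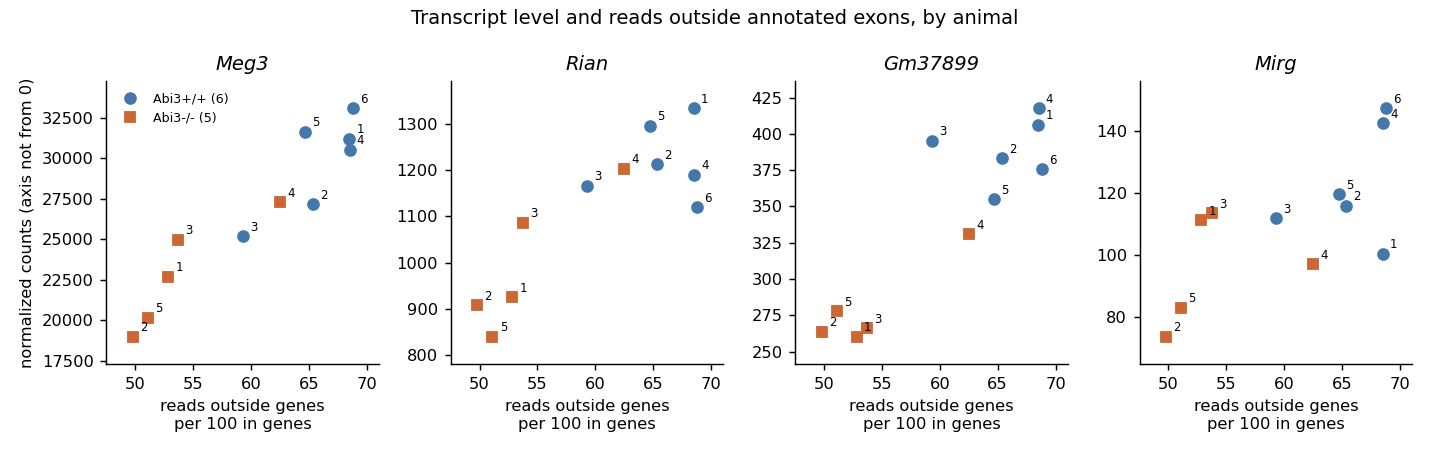
Normalized counts of Meg3, Rian, Gm37899 and Mirg (vertical axes, not from 0) against uniquely aligned reads outside annotated exons per 100 reads in genes (horizontal axes), 1 point for each of 6 Abi3+/+ and 5 Abi3-/- animals with its replicate number. Meg3 is higher toward the right over the whole range from 49.8 to 68.8, in which the Abi3-/- animal at 62.5 lies among the Abi3+/+ animals.

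Across animals the transcripts of the series did not all vary together. After subtraction of the group means, Meg3 and Rian had r = 0.69 (rho = 0.56; 0.72 without the 2 animals farthest in Meg3), and Meg3 and Mirg had r = 0.61 (rho = 0.67). For the first pair r was 0.18 over the 6 Abi3+/+ and 0.91 over the 5 Abi3-/- animals taken alone, and the second had 0.42 and 0.74. Gm37899 and B830012L14Rik, which are neighbours with shared exonic bases, had r = 0.63, and 0.53 and 0.95 within the genotypes. Meg3 and Gm37899 had r = 0.34, with -0.23 in Abi3+/+ and 0.63 in Abi3-/- animals, and Meg3 and B830012L14Rik -0.15. Over the 10 pairs of these 5 transcripts the median r was 0.23 and 7 were above 0. The points share their libraries and size factors.

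Among 7780 genes, the 5 most like Meg3 in this measure were Tnrc6b (r = 0.92), Psme4 (0.91), Gm42768 (0.88), Coro7 (0.88) and Slc6a9 (0.87). Rian stood at place 129 in that order, Mirg at 297 and Gm37899 at 1322. The 5 most like Rian were Lpp (r = 0.89), C2cd5 (0.87), Bbof1 (0.87), Gm43829 (0.86) and 6330415B21Rik (0.85), with Meg3 at place 126. These genes, most of them from other chromosomes, had a higher r than Meg3 and Rian had with each other. They were picked as the highest of 7780, so a high r is built into the choice. None of the 5 most like Meg3 was on chromosome 12, and of those most like Rian Bbof1 was.

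Other classes of transcript gave the frame for the size of the differences. Among TEC genes with a mean of at least 50 normalized counts, the class of Gm37899, 105 of 110 had a fold change below 0, with a median log2 fold change of -0.38 (7 called lower, 0 higher). Among long non-coding RNA genes of that level, the class of Meg3, Rian and Mirg, 75 of 100 were below 0, with a median of -0.15 (5 called lower, 0 higher). Protein-coding genes of that level had a median of 0.02. The value of Gm37899 (-0.47) was thus below the median of its class, as were those of Meg3 (-0.39), Mirg (-0.36) and Rian (-0.30), on the log2 scale. These classes were compared after their values had been seen, and they hold the members themselves. Meg3 and Rian are among the 5 long non-coding RNA genes called lower, and Gm37899 is among the 7 TEC genes called lower.

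Other nuclear long non-coding RNAs were examined as a list of 17, of which 16 were tested. One was lower past the threshold and 0 were higher. An unadjusted DESeq2 p under 0.05 was reached by 7 that were lower and 1 that was higher, where 4.44% of all genes tested were lower at that p. Of the 16, 11 were below 0, and the median log2 fold change was -0.20 beside -0.003 over all genes. The one called was Snhg11, a neuronal small nucleolar RNA host gene, at -0.33 ± 0.072 (SE; DESeq2 adjusted p = 0.00277). Malat1, the nuclear speckle RNA and the most abundant of the list, was at -0.21 ± 0.08 (adjusted p = 0.209). Xist, which coats the inactive X chromosome, was at -0.25 ± 0.089 (adjusted p = 0.156), and Cdr1os, the precursor transcript of a circular RNA, at 0.13 ± 0.065 (adjusted p = 0.372). With the reads outside genes as a covariate Snhg11 had -0.10 ± 0.115, Malat1 0.10 ± 0.12 and Xist -0.23 ± 0.163.

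Imprinted genes outside the domain lay on both sides of 0. Of 46 listed, 41 were tested and 0 passed the threshold in DESeq2, edgeR or limma. An unadjusted DESeq2 p under 0.05 was reached by 4 that were higher and 6 that were lower. Over all 17626 genes tested, 729 were higher and 783 lower at that p. Of the 41, 24 were below 0 and 17 above, with a median of -0.02. Gnas, which encodes a stimulatory G protein subunit and was the most abundant, was at 0.01 ± 0.049 (SE). Kcnq1ot1, a long non-coding RNA that is also on the list of nuclear RNAs, was at -0.18 ± 0.067, Ppp1r9a, a neuronal actin-binding protein, at 0.04 ± 0.07, and Peg3, a zinc finger protein, at -0.21 ± 0.086 (DESeq2 adjusted p = 0.162, 0.898 and 0.243).

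**Figure D4:**
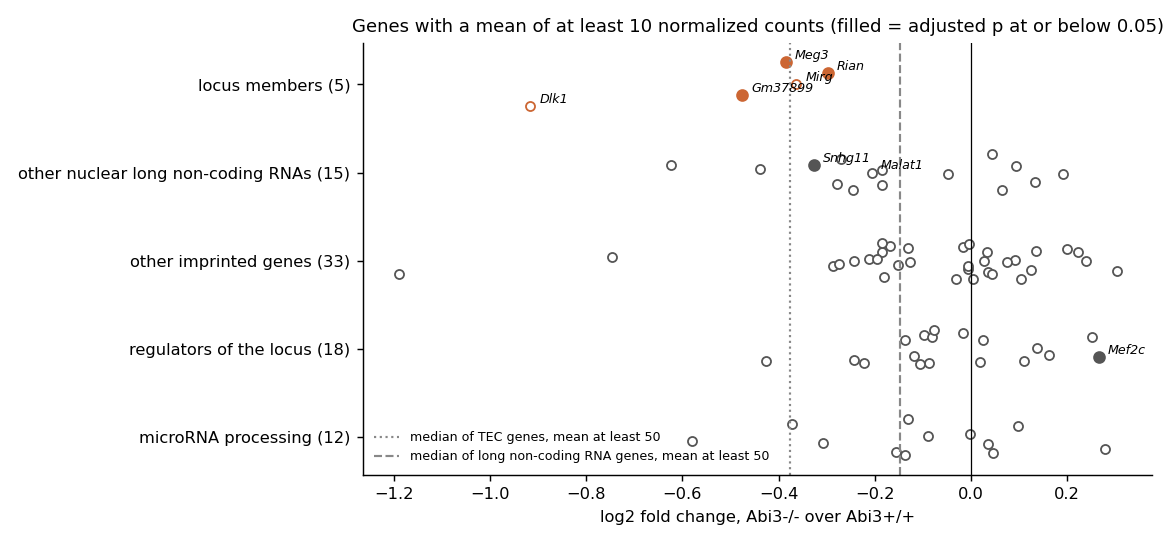
Log2 fold change of Abi3-/- over Abi3+/+ (horizontal axis) for genes with a mean of at least 10 normalized counts, 1 point a gene, in the members (5) and in 4 lists, with filled points past the threshold and vertical lines at the medians of TEC (-0.38) and long non-coding RNA genes (-0.15) with a mean of at least 50. The 5 members lie from -0.92 to -0.30, and the 33 other imprinted genes lie on both sides of 0.

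The factors known to act on the domain were a list of 20, with imprint-maintaining proteins, DNA methyltransferases and demethylases, Polycomb subunits and the transcription factors of the MEF2 and CREB families, and all were tested. One was higher past the threshold and 0 were lower, 1 higher and 2 lower had an unadjusted DESeq2 p under 0.05, and the median was -0.08, with 12 below 0. The one called was Mef2c, a neuronal transcription factor, at 0.27 ± 0.075 (SE; DESeq2 adjusted p = 0.0371), and it did not pass in edgeR or limma (adjusted p = 0.233 and 0.0751). Mef2a had 0.16 ± 0.107, Zfp445, which maintains imprints, -0.09 ± 0.091, and the DNA methyltransferase Dnmt3a -0.24 ± 0.095 (adjusted p = 0.557, 0.757 and 0.209).

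Genes of microRNA processing and silencing, through which the microRNAs of the domain act, were a list of 13, all tested. None passed the threshold in DESeq2, edgeR or limma, and 0 had an unadjusted DESeq2 p under 0.05. The median log2 fold change was -0.13, with 9 below 0. Tnrc6a, a scaffold of the silencing complex, had -0.13 ± 0.095 (SE), its relatives Tnrc6b 0.04 ± 0.075 and Tnrc6c 0.05 ± 0.098, and the Argonaute Ago2 -0.15 ± 0.105.

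Leaving out single animals gives the range of the same values that chose the members, and is no support for them. Over the 11 fits that each left out 1 animal, the log2 fold change of Meg3 ranged from -0.46 to -0.33, that of Gm37899 from -0.54 to -0.45, that of Rian from -0.38 to -0.24 and that of Mirg from -0.43 to -0.28. Leaving out Abi3-/- replicate 4 gave the largest difference for Meg3, Rian and Gm37899.

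**Figure D5:**
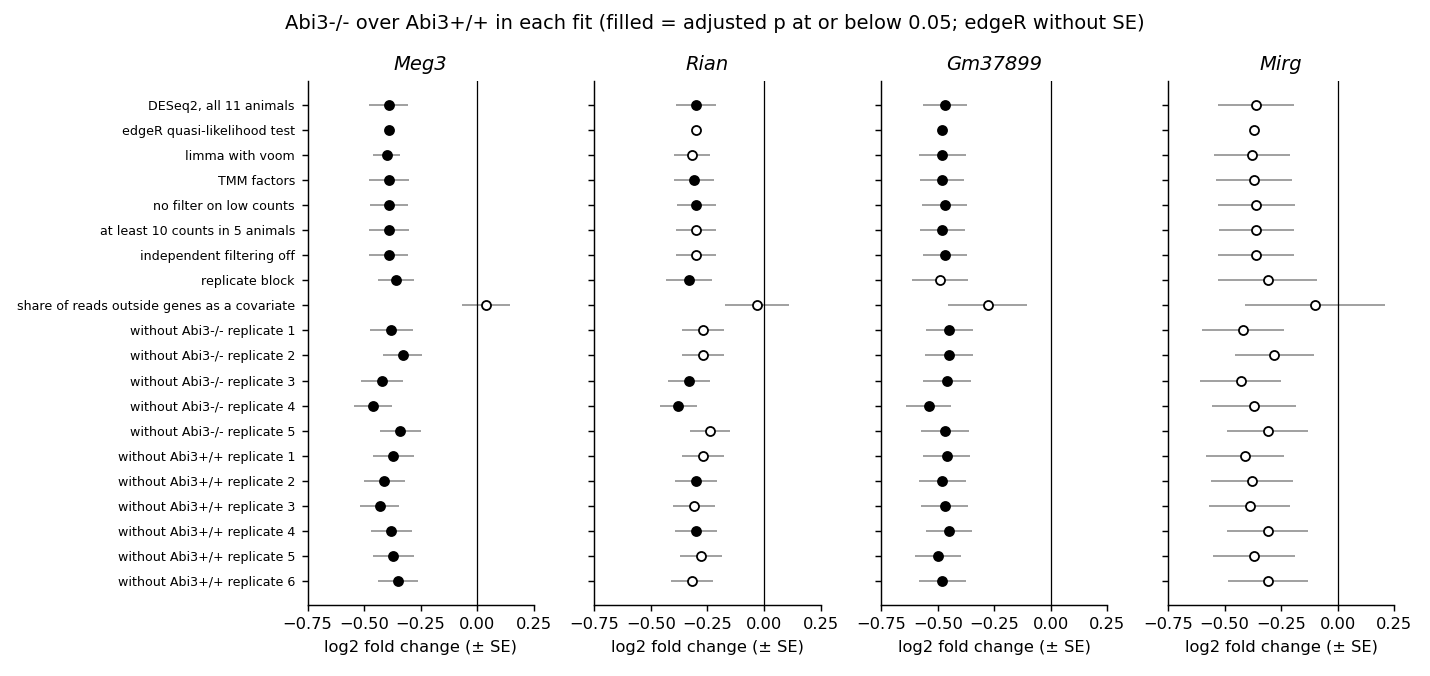
Log2 fold change of Abi3-/- over Abi3+/+ (horizontal axes, bars are SE, none for edgeR) of Meg3, Rian, Gm37899 and Mirg in the DESeq2 fit of all 11 animals, in 8 other fits and in 11 fits without 1 animal each, with filled points past the threshold and open points not past it or with no adjusted p. The fit with reads outside genes as a covariate is the one in which Meg3 lies on the other side of 0 (0.04), and in the replicate block Gm37899 (-0.49 ± 0.125) and Mirg (-0.31 ± 0.218) have no adjusted p.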

How the data were processed

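The study sequenced poly(A)-primed 3′ mRNA (QuantSeq, 76-base single-end reads) from cortex of 11 mice, 1 library per animal, grouped as Abi3+/+ (n = 6) and Abi3-/- (n = 5) from the labels. The authors trimmed reads with bbduk, aligned them with STAR (version 2.7.3a) to GRCm39 and counted them per Ensembl gene with htseq-count (HTSeq version 0.9.1), by strand and uniquely aligned reads only. The deposited values are these raw counts per gene with tallies of unassigned reads. The sources used here name no removal of PCR duplicates, so a count is a read rather than a molecule, and intervals cover counting error only. Reads that fitted 2 overlapping genes alike were given to neither.

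Names and positions were taken from a later GENCODE release on GRCm39, to which 98.0% of identifiers matched. Genotypes were compared, with no other term, in DESeq2 (version 1.42.0) in R (version 4.3.3), with at least 10 counts in total to enter the fit and a mean of at least 1.5 normalized counts to enter the results, as in the study's methods. Its independent filtering, aimed at 0.05, gave no adjusted p to genes under a mean of 70.4. Such genes count as not past the threshold. Alternatives were edgeR (version 4.0.16), limma (version 3.58.1) with voom, TMM factors, other count filters, a replicate block, the reads outside genes as a covariate, and leaving out each animal. The tests were tried on simulated counts. Replicate libraries differed by more than sampling noise (chi-square per degree of freedom of at least 4.33 in every pair), so each counted once. The labels do not state more of how animals were sampled, so p-values measure the spread between these animals.

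Sequences are from RefSeq tables on GRCm38.p6. The members and gene lists were chosen with earlier results of these data known. Genes named were Abi3, the members, neighbours with a mean of at least 10, list genes past the threshold or among the 4 highest in mean, and the 5 genes most like Meg3 and Rian (mean of at least 50). From the marker lists only counts are given.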

Additional observations from a re-analysis of the deposited data

Results flagged for a closer look

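Single animals stood apart from the rest of their genotype for 3 of the transcripts, by Dixon's 95% criterion. Gm37899 had 331 normalized counts in Abi3-/- replicate 4, where the next highest Abi3-/- animal had 278. Dlk1 had 143 in Abi3-/- replicate 3, where the next had 65.5. Rtl1 had 7.07 in Abi3-/- replicate 2, from 7 counts, where the other 4 Abi3-/- animals had 0. Over the 18 groups of values examined, chance flags about 1 in 20. Abi3-/- replicate 4 was also the highest Abi3-/- animal in reads outside genes (62.5 per 100 reads in genes). Its part in the Gm37899 value was not tested.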

How the results depend on the processing

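The count of all genes past the threshold (95) was 37 in edgeR, 21 in limma, 57 with independent filtering off, 30 with the replicate block, 3 with reads outside genes as a covariate, and 46 to 120 without 1 animal (61, 46 and 47 without Abi3-/- replicates 1, 2 and 5, and 61 and 48 without Abi3+/+ replicates 1 and 6). With the covariate 0 members (3 without it) and 0 other nuclear RNAs (1) passed, and Meg3, Malat1 and Miat were at 0.04, 0.10 and 0.01, with the sign turned. The 1 neighbour (Hsp90aa1) became 0 in all 8 other fits of all animals and 0 to 1 without 1 animal. The 1 regulator (Mef2c) became 0 in 7 of these 8 fits, all but the one without a filter on low counts, and 0 to 1 without 1 animal, where Mef2c passed in 5 of 11 and a different gene, Tet2, was called, lower, without Abi3-/- replicate 5. Without 1 animal the members called were 2 to 3, other imprinted genes 0 to 1 and nuclear RNAs 1 to 2 (Kcnq1ot1 joined without Abi3-/- replicate 2). Rian lost its call in edgeR, limma, the stricter count filter, without independent filtering, with the covariate and in 7 of 11 fits without 1 animal. Dio3 turned to 0.15 in limma, 0.09 with the replicate block, and 0.14, 0.03 and 0.61 without Abi3-/- replicates 2 and 4 and Abi3+/+ replicate 5, on 40 counts in all (-0.54 to 0.61 over all 11 such fits). The difference in reads outside genes ranged from -14.0 to -10.8 without 1 animal, and the r of Meg3 and Rian from 0.52 to 0.86. The cause of these changes was not tested.

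The labels do not say whether replicate numbers pair these animals. Only 1 of 5 same-numbered pairs had deviations from the group means with r over 0.1 (mean r 0.04, against -0.008 for other pairs). With the replicate block, Meg3 and Rian passed the threshold and Gm37899 (-0.49) and Mirg (-0.31) had no adjusted p (30 genes called). Depth limits Rtl1 and Dio3, which have too few counts to show a difference.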
